A study of Homo sapiens with 4 samples.

Results

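The BCL2 family decides whether a cell opens its mitochondria and dies by apoptosis. Its pro-survival members, among them BCL2, BCL2L1 (BCL-XL), MCL1 and BCL2A1 (BFL1), hold the effectors BAX and BAK1 in check. The BH3-only members BID, BCL2L11 (BIM), PMAIP1 (NOXA) and BBC3 (PUMA) bind pro-survival proteins or activate the effectors, which then form pores in the outer mitochondrial membrane and let cytochrome c out. Members were taken from a list of 10 genes, as every probe set (a small group of array oligonucleotides read as 1 value) whose only annotated gene symbol was on the list. This gave 30 probe sets for 9 genes, of 41091 non-control probe sets with 1 symbol for 19775 genes on the array. BBC3 had no such probe set, and no value is given for it.

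RNA came from CL1-5 and CL1-0, human lung adenocarcinoma lines, CL1-5 being a subline of CL1-0 that was selected for invasiveness. The groups were CL1-5 with an shRNA against AK4, CL1-5 with a non-silencing shRNA, CL1-0 labelled as carrying an AK4 vector and CL1-0 with a control vector. All were stably transduced and selected with puromycin, and the sources used here do not give the promoter of the constructs or say whether the cells were clones. AK4 is a mitochondrial adenylate kinase, and the design asks what changes when it is raised in CL1-0 or silenced in CL1-5. Each group was 1 Affymetrix array. Values therefore carry neither an error over replicates nor a p-value, and the number of arrays limits every statement.

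Signals were scaled to a common trimmed mean, and values under a floor of 6.93 were set to it before ratios were taken. A gene was read from its brightest probe set, and differences were sized by folds of 2 and, as a lesser size, 1.5. In CL1-5 the 4 AK4 probe sets had log2 ratios of -1.25 to -0.88 with AK4 shRNA, and in CL1-0 they lay between -0.25 and -0.05 on the array labelled AK4 vector, so the AK4 signal did not show overexpression there. Whether these probe sets can read the transcript of the vector was not tested. The ratio of 3' to 5' beta-actin signal, which grows as RNA degrades, was 1.61 and 1.34 on the CL1-5 AK4 shRNA and non-silencing arrays, and 6.54 and 6.04 on the CL1-0 arrays labelled AK4 vector and control vector. The same ratio for GAPDH differed less, at 1.07 and 1.04 on these CL1-5 arrays and 1.54 and 1.25 on these CL1-0 arrays. The mean scaled signal of the BioB spike-in controls was 99.1 and 105.6 on these CL1-5 arrays, and 307.0 and 782.7 on these CL1-0 arrays. Type II alveolar cell is the labelled cell type, but its markers were not all detected. Of 8 readable markers, 5 exceeded the floor on each CL1-5 array. In CL1-0, 6 did with the label AK4 vector and 7 with control vector. SLC34A2 lay under it on all 4. The 8 markers summed to 133.1 and 137.4 on the CL1-5 AK4 shRNA and non-silencing arrays. In CL1-0 they summed to 346.9 with the label AK4 vector and 401.2 with control vector. LAMP3 was at 5.08 in CL1-5 with non-silencing shRNA and 210.0 in CL1-0 with control vector. Between these 2 arrays 6 of 7 measured markers were lower in CL1-5 and 1 higher. Of the other markers, the 6 epithelial ones summed to 1783 to 2027 in CL1-5 and 51.5 to 52.5 in CL1-0, with EPCAM and CDH1 under the floor on both CL1-5 arrays and the CL1-0 control array. Of the fibroblast markers 4 of 6 exceeded the floor on each CL1-5 array and 2 on each CL1-0 array, with COL1A1 at 47.4 to 78.3 and COL3A1 and LUM under it on all 4. The endothelial marker PECAM1 was at 54.0 and 45.1 with AK4 shRNA and non-silencing shRNA in CL1-5, and CDH5 and KDR were under the floor on all 4 arrays. Of 5 readable leukocyte markers 1 to 3 exceeded it, with ITGAM at up to 23.4, and PTPRC and LYZ did so on none.

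**Figure D1:**
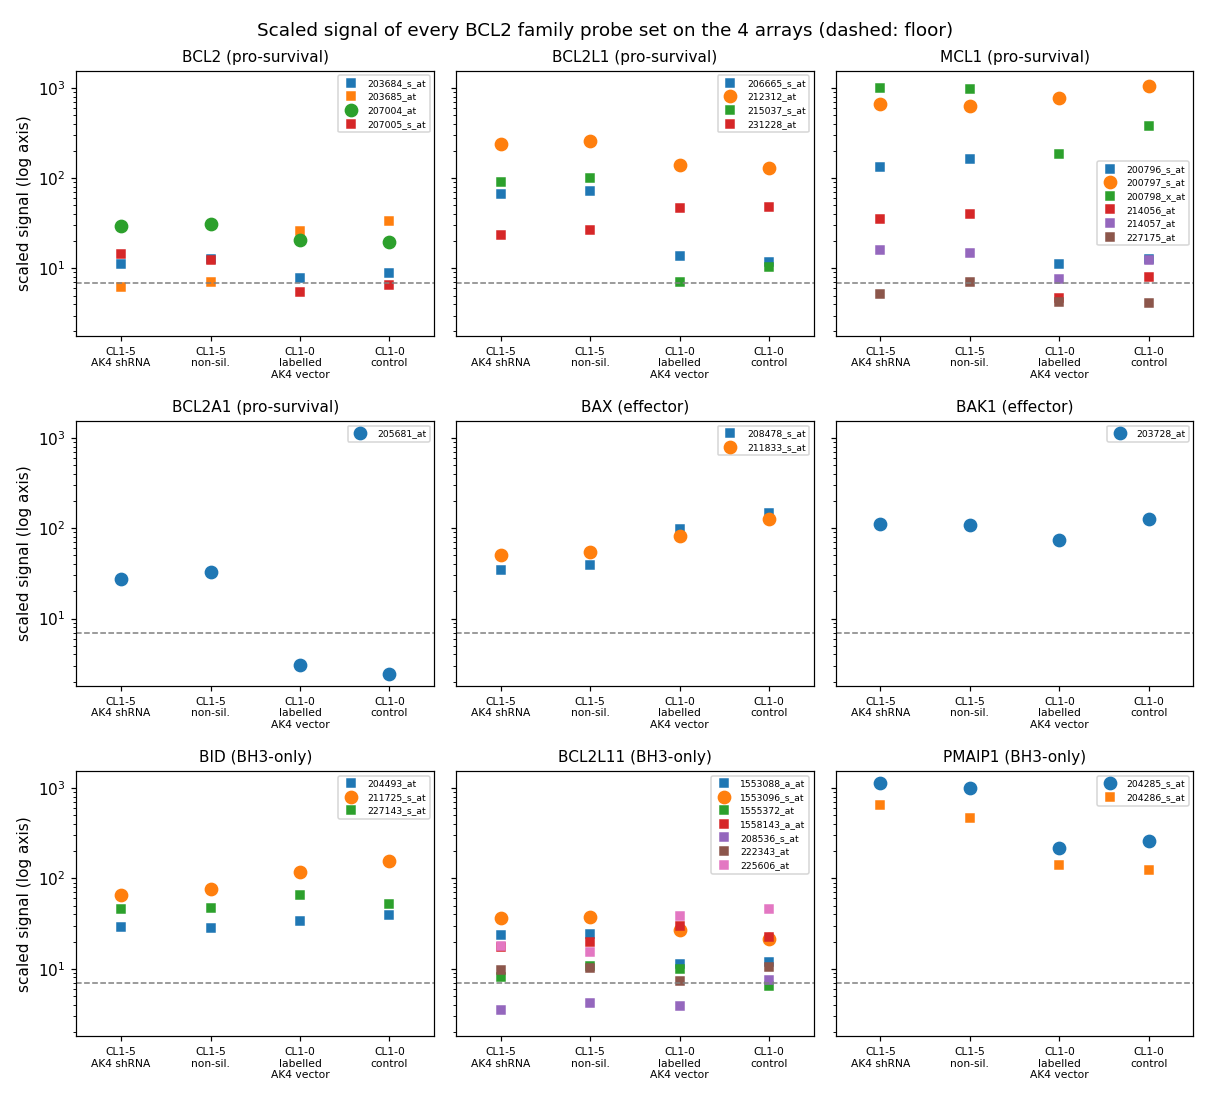
Scaled signal on a log axis (vertical) of all 30 BCL2 family probe sets on the 4 arrays (horizontal), 1 panel per gene, with a circle for the probe set a gene was read from, squares for the others and a dashed line at the floor of 6.93. PMAIP1 and BCL2A1 sit higher on both CL1-5 arrays and BAX sits higher on both CL1-0 arrays, whereas the probe sets of MCL1 and BCL2 run in different directions between the lines.

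The upstream sequences of PMAIP1, BCL2A1, BAX and BAK1 are shown because PMAIP1 and BCL2A1 had the highest ratios between the lines by the probe set read, and BAX and BAK1 the lowest in CL1-0. They are the 250 bases before the start of each gene in RefSeq (GRCh38.p14), written 5' to 3' on the gene's strand. PMAIP1 lies at chr18:59899746-59899995 on the plus strand, BCL2A1 at chr15:79971197-79971446 on the minus strand, BAX at chr19:48954625-48954874 on the plus strand and BAK1 at chr6:33580277-33580526 on the minus strand. Capitals mark any match, on either strand, to 5 core promoter and factor motifs: TGACG (the core of the cAMP response element read by the ATF and CREB family, to which ATF3 belongs), CACGTG (E-box), GGGCGG (GC box), CCAAT and TATAAA.
PMAIP1: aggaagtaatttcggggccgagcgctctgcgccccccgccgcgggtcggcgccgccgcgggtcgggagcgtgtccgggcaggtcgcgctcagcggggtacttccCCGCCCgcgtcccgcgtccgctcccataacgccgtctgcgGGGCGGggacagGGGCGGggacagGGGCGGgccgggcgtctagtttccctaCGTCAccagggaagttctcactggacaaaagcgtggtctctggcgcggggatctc
BCL2A1: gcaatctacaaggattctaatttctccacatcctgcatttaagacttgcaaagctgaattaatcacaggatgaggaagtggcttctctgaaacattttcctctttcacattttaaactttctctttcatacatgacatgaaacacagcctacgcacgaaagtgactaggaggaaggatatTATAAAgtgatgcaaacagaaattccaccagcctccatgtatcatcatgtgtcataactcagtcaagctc
BAX: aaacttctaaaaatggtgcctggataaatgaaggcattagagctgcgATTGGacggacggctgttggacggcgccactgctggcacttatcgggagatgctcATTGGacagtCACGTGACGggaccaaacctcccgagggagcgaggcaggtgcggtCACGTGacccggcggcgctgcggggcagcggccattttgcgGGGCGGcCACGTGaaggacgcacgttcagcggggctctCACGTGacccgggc
BAK1: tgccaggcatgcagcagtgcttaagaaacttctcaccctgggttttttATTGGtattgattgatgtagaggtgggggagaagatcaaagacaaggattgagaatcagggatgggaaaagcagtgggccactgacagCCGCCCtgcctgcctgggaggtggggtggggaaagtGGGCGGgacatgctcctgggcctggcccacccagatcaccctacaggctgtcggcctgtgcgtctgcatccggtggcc
The PMAIP1 sequence holds 4 GC boxes and 1 TGACG, and that of BAX holds 4 E-boxes, 2 CCAAT boxes, 1 GC box and 1 TGACG, which overlaps an E-box. BAK1 has 2 GC boxes and 1 CCAAT box, and BCL2A1 has a TATAAA and none of the other motifs. Among the 35116 sequences of this length in the table, 21.2% hold TGACG, 6.34% CACGTG, 42.6% GGGCGG, 32% CCAAT and 10.7% TATAAA. A match describes these letters and is no evidence that a factor binds.

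In CL1-0, both effectors were lower on the array labelled AK4 vector, BAK1 by 1.70-fold and BAX by 1.53-fold. Every measured MCL1 probe set was lower too, some of them near the floor. No member passed 2-fold by the probe set it was read from. BCL2 and BCL2L1 differed little, and the BH3-only members were mixed. Among 8 members with a measured ratio, 2 were lower by 1.5-fold or more, as were 6.53% of all 14681 measured genes, and 0 were higher by as much, as were 12.6% of genes. At 2-fold the counts were 0 lower and 0 higher, against 1.16% and 3.22% of genes. The members' median log2 ratio was -0.34, with 5 below 0 and 3 above, and that of all measured genes was 0.05, with 43.9% below 0. In bulk RNA fewer cells with a transcript and less of it per cell cannot be told apart.

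Among the pro-survival genes, MCL1, a short-lived protein that guards BAK1 in particular, had the lowest ratio. Its probe set 200797_s_at had a scaled signal of 763.6 on the array labelled AK4 vector and 1058 on the control array, a log2 ratio of -0.47. Another, 200798_x_at, had 184.2 with the label AK4 vector against 379.2 with control vector, or 2.06-fold lower. All 5 measured MCL1 probe sets lay below 0, from -1.04 to -0.20. Of these, 200796_s_at, 214057_at and 214056_at were dim, at 12.9, 12.4 and 8.11 on the control array. With the label AK4 vector 214056_at was under the floor, which sets its ratio. The probe set 200798_x_at was the only 1 of 27 measured member probe sets past 2-fold in this comparison, where 1.72% of all measured probe sets were lower and 3.16% higher by 2-fold or more. Its suffix _x_at marks oligonucleotides that may also bind other transcripts.

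BCL2, the founding member, was read from 207004_at at 20.6 on the array labelled AK4 vector against 19.6 on the control array, a log2 ratio of 0.08. Its other 2 measured probe sets were slightly lower, down to -0.39. BCL2L1, another pro-survival member, had 138.1 against 128.7 for 212312_at, a log2 ratio of 0.10. Its 4 probe sets split evenly around 0, from -0.58 to 0.22. The lowest, 215037_s_at, was near the floor, at 6.98 with the label AK4 vector against 10.4 with control vector. BCL2A1, an NF-kB target best known in blood cells, was under the floor on both CL1-0 arrays and had no ratio.

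BAK1, the effector that sits in the mitochondrial membrane before any death signal, is read by a single probe set. Its scaled signal was 73.4 on the array labelled AK4 vector and 124.9 on the control array, a log2 ratio of -0.77. This array had the lowest BAK1 signal of all 4, and 3.11% of measured genes were at least as far down. BAX, the cytosolic effector that moves to mitochondria on activation, had 82.6 against 126.8 for 211833_s_at, a log2 ratio of -0.62. Its second probe set, 208478_s_at, gave 98.6 with the label AK4 vector and 146.6 with control vector, a log2 ratio of -0.57. Of all measured genes 5.65% were at least as far down as BAX. For scale, probe sets of 1 gene scattered with a pooled SD of 0.41 (log2) in this comparison, which is not an error over replicates. The BioB spike-in signal was lower on the same array too, and its part in these ratios was not tested.

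BID, which links death receptors to mitochondria once caspase-8 cuts it, had 116.6 on the array labelled AK4 vector against 156.6 on the control array for 211725_s_at, a log2 ratio of -0.43. A second BID probe set agreed in direction at -0.22, and 227143_s_at went the other way at 0.34. BCL2L11, whose protein BIM activates the effectors directly, had 26.8 against 21.2 for 1553096_s_at, a log2 ratio of 0.34. However, 4 of its 7 probe sets lay below 0 and the range ran from -0.53 to 0.52. Both ends of this range lay near the floor, with 7.24 against 10.4 for 222343_at and 9.92 against 6.43 for 1555372_at. The 6.43 is under the floor, as is the 3.87 of 208536_s_at with the label AK4 vector, which sets the ratios of these 2 probe sets. PMAIP1, which neutralises MCL1, was at 218.7 with the label AK4 vector against 261.5 with control vector for 204285_s_at and at 141.1 against 124.5 for 204286_s_at. These PMAIP1 ratios of -0.26 and 0.18 pointed in opposite directions.

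**Figure D2:**
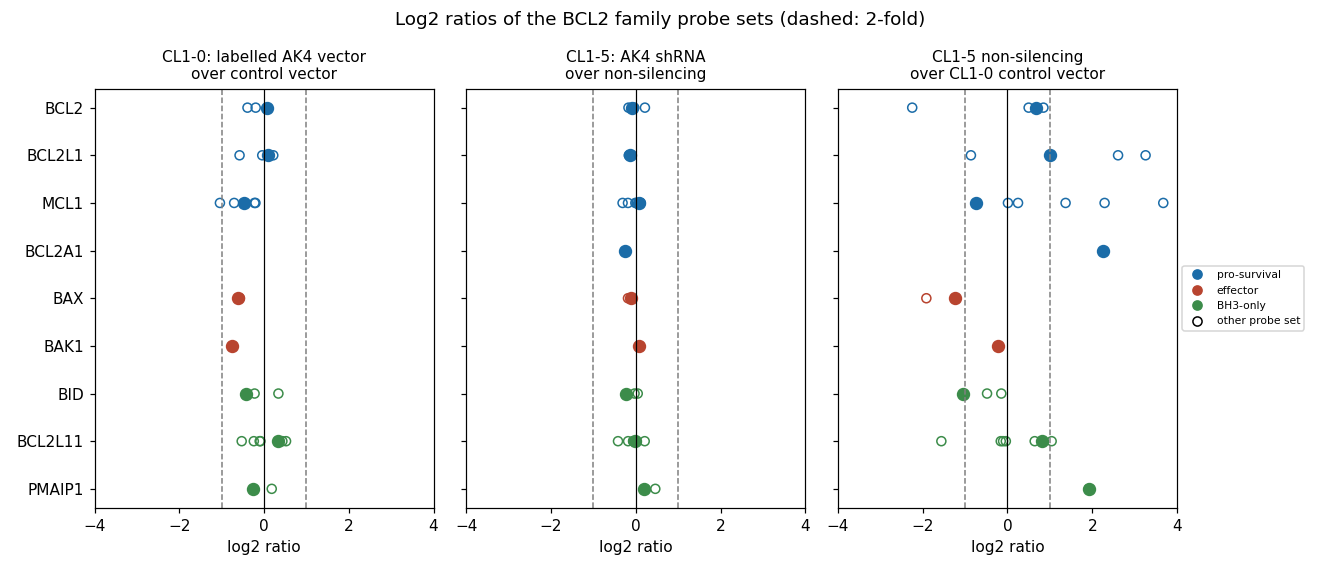
Log2 ratios (horizontal) of the measured probe sets of each member (vertical) in the 3 comparisons, with filled points for the probe set a gene was read from, open points for the others, colours for the role and dashed lines at 2-fold. In CL1-0 all BAX, BAK1 and MCL1 points lie left of 0, in the shRNA comparison all points lie inside 2-fold, and between the lines the points of MCL1, BCL2, BCL2L1 and BCL2L11 spread across 0.

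In CL1-5, silencing of AK4 came with no member past 1.5-fold in either direction, on any of the 29 measured probe sets, where 0.953% of all measured probe sets were higher and 1.07% lower by that much. By the probe set read, the highest ratio was that of PMAIP1 and the lowest that of BCL2A1. Few genes of any kind moved here. Of all 15321 measured genes 0.868% were higher and 0.542% lower by 1.5-fold or more, and at 2-fold the shares were 0.0914% higher and 0.0131% lower. Read against these shares, a count of 0 among 9 members does not set the family apart. The members' median log2 ratio was -0.09, with 6 below 0 and 3 above, and that of all measured genes was -0.0015, with 50.3% below 0.

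PMAIP1 had 1135 with AK4 shRNA against 998.4 with non-silencing shRNA for 204285_s_at, and 646.9 against 470.2 for 204286_s_at. These are log2 ratios of 0.18 and 0.46, the second being the highest of any member probe set in this comparison. The pooled SD between probe sets of 1 gene was 0.22. By the first probe set 18.3% of measured genes were at least as far up.

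BCL2A1 had 27.7 with AK4 shRNA and 33.1 with non-silencing shRNA, a log2 ratio of -0.26, and 9.86% of genes were at least as far down. BID followed at -0.22, although its 3 probe sets ran from -0.22 to 0.05. All 4 BCL2L1 probe sets were slightly lower with AK4 shRNA, in a narrow range of -0.16 to -0.09, and both BAX probe sets were too, at -0.18 and -0.11. Each of these is smaller than the pooled SD between probe sets, except BCL2A1.

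MCL1 had 658.2 with AK4 shRNA against 629.6 with non-silencing shRNA for 200797_s_at, a log2 ratio of 0.06, with 3 of 6 probe sets above 0. BAK1 had 112.7 against 107.3, a log2 ratio of 0.07. BCL2 at -0.09 and BCL2L11 at -0.02 also lay close to 0. The lowest member probe set was 1555372_at of BCL2L11 at -0.42, with signals of 8.08 and 10.8 close to the floor.

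Set beside each other, the ratios of the effectors were -0.77 in CL1-0 and 0.07 in CL1-5 for BAK1 and -0.62 and -0.11 for BAX. Those of MCL1 were -0.47 and 0.06 and those of PMAIP1 -0.26 and 0.18. With 1 array a group the difference between the lines' responses was not tested.

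**Figure D3:**
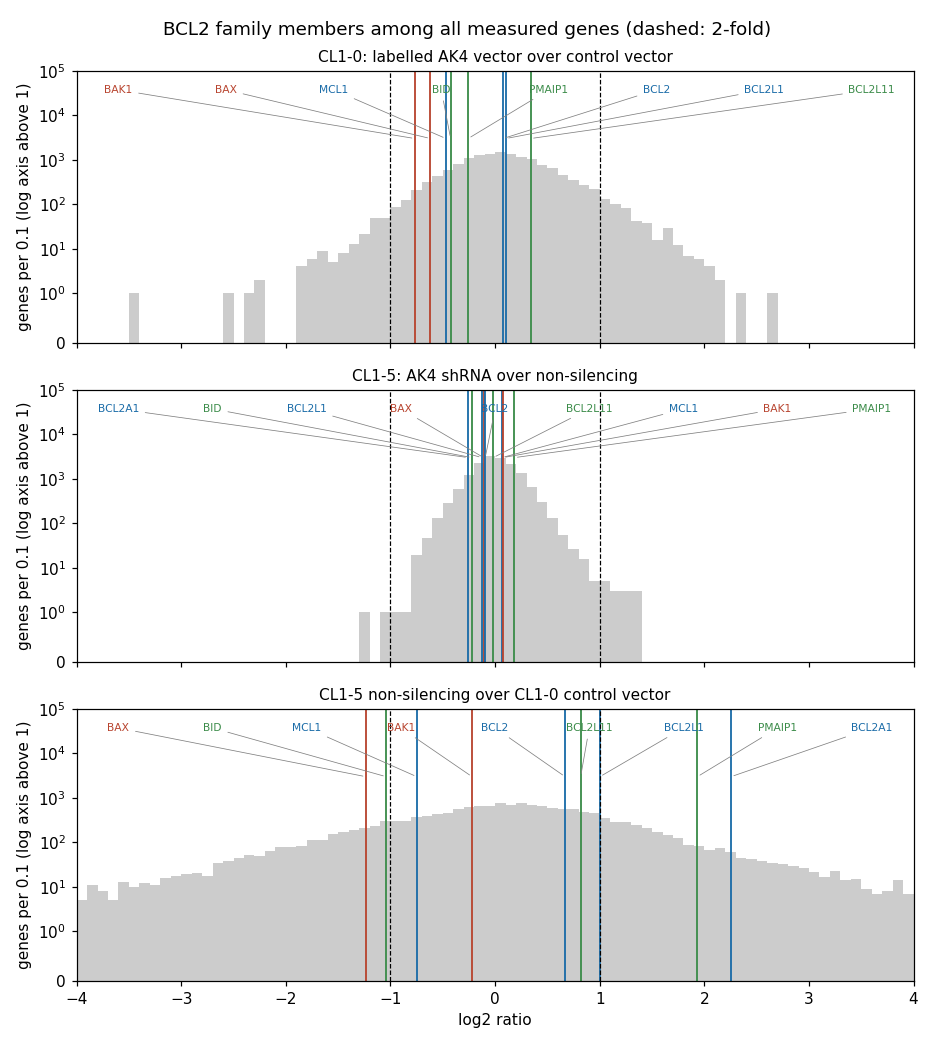
Number of measured genes per 0.1 of log2 ratio (vertical, log axis above 1) against the log2 ratio (horizontal, cut at -4 and 4) in the 3 comparisons, with coloured lines for the members and dashed lines at 2-fold. BAK1 and BAX lie at -0.77 and -0.62 on the left flank in CL1-0, every member lies between -0.26 and 0.18 in the shRNA comparison, and BCL2A1 and PMAIP1 lie furthest right between the lines.

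Between the control arrays, CL1-5 with non-silencing shRNA had more PMAIP1, BCL2A1 and BCL2L1 and less BAX and BID than CL1-0 with control vector. These 5 of 9 members passed 2-fold, 3 higher and 2 lower, where 17.1% of 15970 measured genes were higher and 14.2% lower by as much. By probe set, 10 of 30 were higher and 5 lower by 2-fold or more, against 21.1% and 12.1% of all measured probe sets. At 1.5-fold 5 members were higher and 3 lower, where 30.5% and 23.3% of genes were. Among these members were BCL2, BCL2L11 and MCL1, whose probe sets ran in different directions. BAK1 alone stayed inside 1.5-fold. The members' median log2 ratio was 0.67, with 5 above 0, and that of all measured genes was 0.13. This members' median is the ratio of BCL2 by the probe set read, and BCL2 was at -0.06 averaged over its probe sets. The 3' to 5' ratio of beta-actin, given above, was higher in CL1-0, whereas that of GAPDH was 1.04 in CL1-5 and 1.25 in CL1-0. The summed epithelial markers were higher in CL1-5, mostly through KRT18 and KRT8, and the summed type II alveolar markers were lower there. The part of any of these in the members' ratios was not tested.

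PMAIP1 had 998.4 on the CL1-5 non-silencing array against 261.5 on the CL1-0 control array for 204285_s_at, and 470.2 against 124.5 for 204286_s_at. Both CL1-5 arrays were above both CL1-0 arrays on each probe set. The ratios of 1.93 and 1.92 are 3.82-fold and 3.78-fold, and 4.81% of measured genes were at least as far up as the first. BCL2A1 had 33.1 in CL1-5 with non-silencing shRNA and 2.43, which is under the floor, in CL1-0 with control vector. Against the floor it was at least 4.77-fold higher in CL1-5, a bound for this probe set and scaling, and 3.27% of genes were at least as far up.

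BAX went the other way on both probe sets. It had 53.9 in CL1-5 with non-silencing shRNA against 126.8 in CL1-0 with control vector for 211833_s_at, a log2 ratio of -1.23, and 38.9 against 146.6 for 208478_s_at, a log2 ratio of -1.91. Of measured genes 10.4% were at least as far down as the first. BAK1 was nearly level, with 107.3 in CL1-5 and 124.9 in CL1-0, a log2 ratio of -0.22. BID had 76.1 in CL1-5 against 156.6 in CL1-0 for 211725_s_at, a log2 ratio of -1.04, but only -0.48 and -0.15 for its other 2 probe sets, so it lies just past 2-fold on 1 of 3.

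BCL2L1 was just inside the call, with 257.6 in CL1-5 with non-silencing shRNA against 128.7 in CL1-0 with control vector for 212312_at, a log2 ratio of 1.001. Its probe sets 206665_s_at and 215037_s_at gave larger ratios of 2.61 and 3.26, with 71.7 against 11.8 and 99.8 against 10.4. The remaining probe set, 231228_at, was lower in CL1-5 at -0.86. BCL2 was divided by probe set. Probe set 207004_at, which the platform annotation ties to the transcript of the short beta isoform, had 31.1 in CL1-5 and 19.6 in CL1-0, a log2 ratio of 0.67. Probe set 203685_at, tied to the transcript of the main alpha isoform, had 7.11 in CL1-5 and 33.8 in CL1-0, a log2 ratio of -2.25, and its signal with AK4 shRNA was under the floor. The other BCL2 probe sets were at 0.50 and 0.85.

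MCL1 cannot be given a direction between the lines. The probe set it was read from, 200797_s_at, had 629.6 in CL1-5 with non-silencing shRNA against 1058 in CL1-0 with control vector, a log2 ratio of -0.75. Of the other 5 probe sets all lay above 0, with 980.7 against 379.2 for 200798_x_at (1.37) and 164.2 against 12.9 for 200796_s_at (3.68). However, 227175_at had 6.98 in CL1-5 and 4.14, under the floor, in CL1-0, which sets its ratio of 0.01. In CL1-0 214057_at and 214056_at were dim, at 12.4 and 8.11. BCL2L11 was similarly divided, with 0.82 for 1553096_s_at, -1.56 for 225606_at and 4 of 7 probe sets below 0. Among the latter, 208536_s_at was under the floor in CL1-5, which sets its ratio of -0.10. The pooled SD between probe sets of 1 gene was 0.85 in this comparison.

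The scaling matters most here. The median of all measured genes moved from 0.13 to -0.30 with a common median and to 0.83 with the values as deposited, and the share of higher genes among those past 2-fold was 54.6% as scaled here, 42.9% after quantile normalization, 26.8% with a common median and 90.4% as deposited. Relative to that median, over these scalings and cyclic loess, PMAIP1 stayed between 1.75 and 2.24, BCL2A1 between 1.86 and 2.28, BCL2L1 between 0.82 and 1.13, BAX between -1.42 and -1.20 and BID between -1.23 and -0.99. BAK1 stayed between -0.41 and -0.17, although its ratio as deposited was 0.65. The trimmed mean, the common median and the values as deposited differ only by a single factor per array. For a gene above the floor, these change the value relative to the median only through the floor's effect on that median. Steadiness over them was therefore largely fixed in advance, unlike that over quantile normalization and cyclic loess. Calls ended for BAX at -0.36 and BID at -0.17 as deposited, for BCL2L1 at 0.51 with a common median, for BCL2A1 at 0.98 with a higher floor, the 60th percentile, and for BID at -0.56 averaged over its probe sets and at -0.48 when those ending in _x_at or _s_at were dropped. BCL2L11 turned to -1.56 in that last setting and MCL1 to 2.29.

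Further genes of the pathway were described as 5 lists. Of 13 other BCL2 family genes none passed 2-fold in CL1-0, with a median log2 ratio of -0.27, although 1 was at least 2-fold lower under cyclic loess, a common median and the values as deposited. The BH3-only gene HRK was at -0.99 and BOK, a relative of BAX and BAK1, at -0.77, and all measured probe sets of both agreed in sign. With AK4 shRNA none passed 2-fold, the median was 0.03 and the largest ratios were those of BCL2L15 (-0.51) and the BH3-only gene BMF (0.31). Between the lines 2 were at least 2-fold higher in CL1-5 and 2 lower, with a median of 0.58. HRK was lower at -3.28, with 11.3 in CL1-5 and 109.6 in CL1-0 and 4 of 5 probe sets agreeing. BCL2L13 was at -1.89, or -0.37 when its probe sets were averaged. BNIP3 and BNIP3L, mitophagy receptors induced by hypoxia, were higher at 1.02 and 1.03, BNIP3L on 1 of 2 probe sets and at 0.49 averaged over them.

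Of 13 readable caspases and apoptosome genes, CASP6, an executioner caspase, was at 1.27 with the label AK4 vector over control vector. Both of its probe sets were above 0, and neither is left when those ending in _x_at or _s_at are dropped. None was 2-fold lower, and the list median was 0.25. With AK4 shRNA none passed 2-fold, the median was 0.05 and the largest ratios were those of CASP8, the caspase that cuts BID, at 0.46 and of the apoptotic nuclease DFFB at 0.40. That of CASP8 was 0.15 averaged over its probe sets, with 1 of 2 measured ones above 0. Between the lines CASP8 was higher in CL1-5 at 2.25 by a probe set ending in _s_at, but under the floor by the brightest without that suffix, and the mitochondrial nuclease ENDOG at 1.74. CYCS, the cytochrome c that the pores release, was lower at -1.47, or -0.50 averaged over its probe sets. The list median was 0.18.

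Of 7 readable inhibitors of apoptosis in CL1-0, BIRC5 (survivin), which also acts in mitosis, had a ratio of 1.49 with the label AK4 vector over control vector, with all 4 probe sets above 0, and at 0.97 when those ending in _x_at or _s_at were dropped. The list median was 0.24. With AK4 shRNA none passed 2-fold, with a median of 0.09 and XIAP, a direct caspase inhibitor, at 0.28 and CFLAR, which blocks caspase-8, at 0.15. Between the lines BIRC5 was higher in CL1-5 at 2.53, again on 4 of 4 probe sets, and XIAP lower at -1.30 on 5 of 7, or -0.67 averaged over them. The median was 0.72.

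Of 16 readable transcription factors known to act on members, none passed 2-fold in CL1-0, with a median of -0.14. JUN was at -0.50, but at -1.35 by its brightest probe set not ending in _x_at or _s_at. The NF-kB subunits NFKB1 and RELA, which can induce BCL2A1 and BCL2L1, were at -0.83 and -0.73. With AK4 shRNA none passed 2-fold, the median was 0.09 and the NF-kB subunit REL was at 0.52 and FOXO3, an inducer of BCL2L11, at 0.42. Averaged over their probe sets REL and FOXO3 were at 0.28 and 0.16, FOXO3 with 2 of 4 above 0. Between the lines 3 were higher in CL1-5 and 3 lower, with a median of 0.29. DDIT3 (CHOP), a stress factor that can induce BCL2L11, was lower at -4.74 and FOXO3 at -1.69, or -0.44 averaged over its probe sets. HIF1A was higher at 1.77 and FOXO1 at 1.72, or 0.76 averaged over its probe sets.

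The list of MCL1 protein turnover had 6 genes, none past 2-fold in either perturbation. In CL1-0 its median was -0.16, with the ligase MARCHF5 at -0.31 and the kinase GSK3B at -0.26. Averaged over their probe sets these were at 0.006 and -0.12, so MARCHF5 has no settled direction there. With AK4 shRNA the list median was 0.04, with the deubiquitinase USP9X at 0.29 and the ligase adaptor FBXW7 at 0.14. Averaged over their probe sets these were at 0.12 and 0.07. Between the lines the median was -0.94, with HUWE1, a ligase for MCL1, at -1.31, USP9X at -1.30 and USP13 at 1.12. HUWE1 was lower on 2 of 5 probe sets and USP9X on 2 of 4, and averaged over their probe sets they were at 0.13 and 0.30, so neither has a settled direction. USP13 was at 0.49 on that average, with 2 of 3 probe sets above 0.

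**Figure D4:**
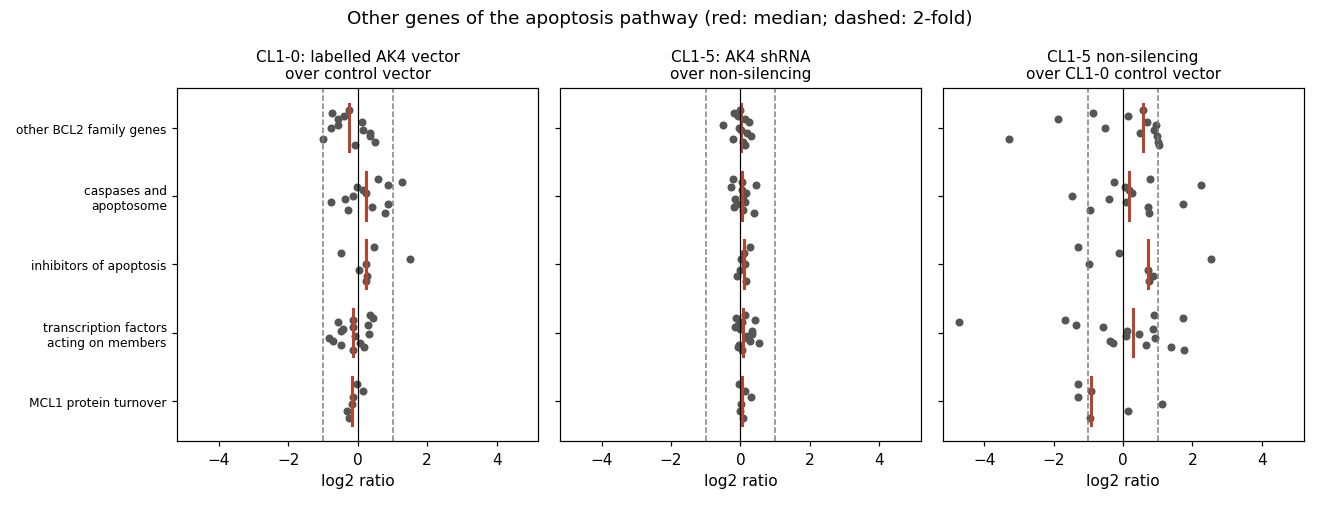
Log2 ratios (horizontal) of the measured genes of 5 lists around the BCL2 family (vertical) in the 3 comparisons, 1 point per gene, with red bars at list medians and dashed lines at 2-fold. CASP6 at 1.27 and BIRC5 at 1.49 are the points past 2-fold in CL1-0, none is past it in the shRNA comparison, and HRK at -3.28 and DDIT3 at -4.74 lie furthest left between the lines.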

How the data were processed

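One array was hybridised for each of 4 groups, taken from the titles. The authors deposited 1 intensity per probe set and array, unlogged. MAS5 is named in the submitters' processing notes, and the sources used here do not give its version, role or scaling target, the background correction or detection calls. The 54675 probe sets include 62 controls, and 41097 had 1 gene symbol, 1801 several and 11777 none listed. For 99.9% the symbol was brought up to date by gene identifier.

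Here the arrays were brought to 1 trimmed mean (2% removed at each end, controls left out), floored at the 40th percentile over the 4 scaled arrays (6.93, or 2.79 on the log2 scale) and taken to log2. A gene was read from its brightest probe set over the 4 arrays and called measured in a comparison if either array exceeded the floor. No test was possible. All members are named by rule, and of each pathway list up to 4 genes past 2-fold with the largest ratios, or the 2 largest. BCL2L13, JUN and the single markers named were chosen after their values were seen. Members and lists were chosen with earlier results of these data known. Listed genes without a probe set of 1 symbol were not analysed here. The procedure was tested on simulated data. Python 3.11.15, pandas 2.3.3 and, for cyclic loess, limma 3.58.1 in R 4.3.3 were used, and 8 alternatives were tried.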

Additional observations from a re-analysis of the deposited data

How the results depend on the processing

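Of 96 counts of members past 2-fold or 1.5-fold under the 8 alternatives, 85 stayed within 1.5 times the value above and 11 did not, of which 10 were in the comparison of the lines. Most of the 85 were counts of 0 that stayed 0, among them every count with AK4 shRNA. Leaving out the _x_at and _s_at probe sets, which gives BAX and PMAIP1 no value, 1 member was lower by 1.5-fold or more in CL1-0, and between the lines 1, BCL2L11, was lower at either fold, at -1.56 against 0.82 above. As deposited, 5 members were at least 2-fold higher in CL1-5 and 0 lower at either fold. With the mean of all probe sets 1 was lower at either fold. At least 1.5-fold higher were 3 members after quantile normalization, 3 after cyclic loess and 2 with a common median. The cause was not tested, except that leaving out probe sets removes genes. No member past 2-fold reversed. BAK1 in CL1-0 stayed between -0.83 and -0.77, and BAX between -0.68 and -0.59. This was largely fixed in advance. Both genes lie above the floor, and a common median or the values as deposited shift them only by a single factor per array. Averaging or leaving out probe sets could not move BAK1, which has a single probe set. After quantile normalization and cyclic loess BAK1 was at -0.77 and -0.78, and BAX at -0.62 and -0.65. MCL1 between the lines had the opposite sign under 3 of 8 alternatives, up to 2.29. No paired analysis was possible because each group is 1 array. Depth is not defined for arrays, and dim probe sets near the floor are limited by signal over background.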
